A study of Homo sapiens with 9 samples.

Results

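The subject is a set of 67 human miRNA entries numbered from 4000 upwards and below 4600 in the miRNA registry. The members were chosen by detection on these arrays: a miRNA was taken when its probe names that miRNA alone, when its number falls in this range, and when its normalized signal was given with an acceptable spot mark on at least 2 of 9 arrays. The array carries 220 such probes with these numbers: 101 were detected on no array and 44 on 1 array, and 8 detected entries (miR-4281, miR-4286, miR-4327, miR-4454, miR-4459, miR-4484, miR-4530 and miR-4532) were left out by number. The 67 stand among 2004 probes of 1 miRNA and 2019 miRNA probes in all. Because detection chose the members, how often they were detected is a description and was not tested.

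The samples come from HMC-1, a human line derived from a mast cell leukaemia. HD samples hold RNA released by the cells, collected by ultracentrifugation and taken from the dense fractions of a sucrose gradient. LD samples hold released RNA from the light fractions of that gradient. Cell samples hold RNA of the cells themselves. There are 3 samples in each group, from 3 cultures that each gave an HD, an LD and a Cell sample, per the series' design text. All groups share the line and the labelled growth conditions, and no sample of another line or of another mast cell source entered the comparisons.

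MicroRNAs are short RNAs that guide Argonaute proteins to messenger RNAs, which are then translated less or degraded, and pairing rests mainly on the seed, bases 2 to 8 of the mature miRNA. Cells release miRNAs together with other small RNAs in membrane vesicles, which float at low density, and in denser particles and protein complexes. Registry numbers follow the order in which sequences were added, and entries with high numbers came mostly from deep sequencing of small RNAs. Many of them have no established target or function, and a probe also binds any other labelled RNA that carries the same stretch of sequence.

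The mature sequences are printed for the members on which the results turn, since their base composition recurs below. RefSeq (GRCh38.p14) held a mature sequence for 58 of the 67 members. Sequences run 5′ to 3′, and the seed is in capitals. The first 9 are the members detected on all 9 arrays for which there is a sequence; the next 2 had the largest falls among members measured in LD and Cell; then come 2 that were detected in HD alone, and last 2 that share a seed with a miRNA numbered below 1000.
miR-4497: cUCCGGGAcggcugggc
miR-4466: gGGUGCGGgccggcgggg
miR-4463: gAGACUGGgguggggcc
miR-4442: gCCGGACAagagggagg
miR-4516: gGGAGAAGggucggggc
miR-4488: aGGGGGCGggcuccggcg
miR-4492: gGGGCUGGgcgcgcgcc
miR-4257: cCAGAGGUggggacugag
miR-4505: aGGCUGGGcugggacgga
miR-4284: gGGCUCACaucaccccau
miR-4443: uUGGAGGCguggguuuu
miR-4258: cCCCGCCAccgccuugg
miR-4476: cAGGAAGGauuuagggacaggc
miR-4429: aAAAGCUGggcugagaggcg
miR-4306: uGGAGAGAaaggcagua

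Of the 58 members with a sequence, 44 lie within the span of another RefSeq gene; exon or intron and the strand of that gene were not compared. miR-4497 lies at chr12:109833350-109833366 (plus strand) within the span of TRPV4, which encodes a calcium-permeable channel. miR-4466 lies at chr6:156779710-156779727 (minus strand) within the span of ARID1B, a subunit of a chromatin remodelling complex. miR-4463 lies at chr6:75428446-75428462 (plus strand) within that of FILIP1, and miR-4442 at chr3:25664875-25664891 (minus strand) within that of TOP2B, a DNA topoisomerase. miR-4516 lies at chr16:2133120-2133136 (plus strand) within the span of PKD1, the gene of polycystin 1. miR-4492 lies at chr11:118910765-118910781 (plus strand) within that of BCL9L, a cofactor of Wnt signalling. miR-4505 lies at chr14:73758749-73758766 (plus strand) within that of MIDEAS, and miR-4257 at chr1:150551987-150552004 (plus strand) within that of ADAMTSL4. miR-4284 lies at chr7:73711327-73711344 (plus strand) within the span of STX1A, which encodes a protein of vesicle fusion. miR-4258 lies at chr1:154975703-154975719 (plus strand) within that of CKS1B, a cell cycle regulator, and miR-4476 at chr9:36893466-36893487 (minus strand) within that of PAX5, a B cell transcription factor. miR-4429 lies at chr2:11540652-11540671 (minus strand) within that of GREB1, and miR-4306 at chr13:99643123-99643139 (plus strand) within that of CLYBL. miR-4488, at chr11:61508599-61508616 (plus strand), and miR-4443, at chr3:48196572-48196588 (plus strand), lie within the span of no other gene of the table.

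All levels below are the authors' globally normalized signal, for which the median detected miRNA probe of each array was set to 25, so they are relative within an array and give no amount of RNA. The signal also depends on the probe's sequence, and levels were compared between samples for 1 probe at a time. Detected miRNA probes numbered 254 to 329 on HD arrays, 303 to 368 on LD arrays and 440 to 506 on Cell arrays. The Cell arrays stand alone on slide 1, so slide and the contrast with cells cannot be told apart; the HD arrays and LD 1 share slide 2, and LD 2 and LD 3 lie on slide 3. Of 8 blood and mast cell miRNAs, 1 was detected on all HD arrays, 6 on all LD arrays and 6 on all Cell arrays, with summed signals of 13.2 to 56.0 in HD, 520 to 1102 in LD and 2339 to 4367 in Cell, and miR-155-5p was detected on none. Of 6 epithelial miRNAs, none was detected on all arrays of a group, and their sums were 0 to 50.5 in HD, 0 to 29.0 in LD and 16.4 to 46.1 in Cell. Of 6 liver, muscle and neural miRNAs, none was detected in HD, and the sums were 12.8 to 48.0 in LD and 66.0 to 88.1 in Cell. In Cell they rest mostly on miR-9-5p, detected on all 3 Cell arrays with a geometric mean of 66.6. Each of the others was detected on at most 1 Cell array. Of 3 red cell and serum miRNAs the sums were 68.2 to 597 in HD, 32.9 to 106 in LD and 0 to 52.4 in Cell, and in HD and LD they rest mostly on miR-451a. The part of these in the members' levels was not tested.

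The 67 members were not detected evenly. Each HD array detected 27 to 35 of them, each LD array 26 to 28 and each Cell array 37 or 38. Only 10 were detected on all 9 arrays: the 9 printed first above and miR-4508. A further 16 were detected on 4 to 8 arrays, 19 on 3 arrays and 22 on 2 arrays. Detection on all 3 HD arrays and on no other array was seen for miR-4258, miR-4419a and miR-4476, and detection on all 3 Cell arrays alone for miR-4289, miR-4306, miR-4448 and miR-4486. No member was detected on all 3 LD arrays alone. The highest detected value fell in an HD sample for 31 members, of which 21 peaked in HD 2, in an LD sample for 14 and in a Cell sample for 22. The factor that puts an array's median detected probe at 25 was 1.89, 4.79 and 0.81 in HD 1 to HD 3. That of HD 2 was the highest of the 9 arrays, and which sample peaks depends on these factors. At the edge of the detection rule, members on 2 arrays had detected values of 9.77 to 147 with a median of 16.6, and the 44 entries on 1 array had values of 9.66 to 21.3 with a median of 12.3.

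**Figure D1:**
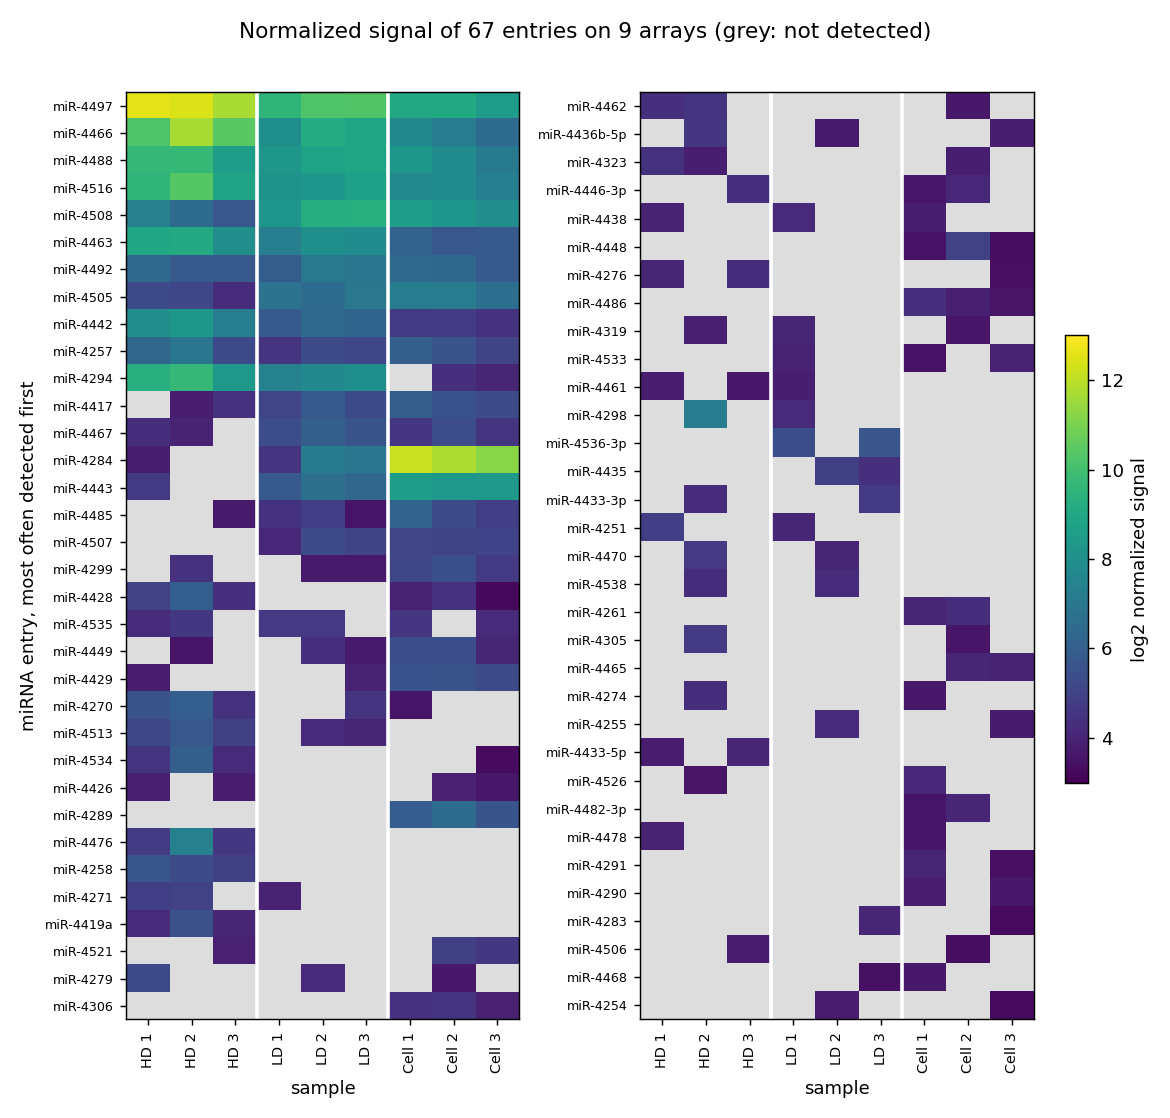
Log2 normalized signal (colour) of the 67 members (rows, most often detected first) in the 3 HD, 3 LD and 3 Cell samples (columns); grey cells were not detected. The 10 members on all 9 arrays are at the top left, and the right-hand block holds mostly entries seen on 2 or 3 arrays.

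The members' share of all detected miRNA signal does not depend on how arrays are scaled. It was 10.7%, 11.9% and 11.9% in HD 1, HD 2 and HD 3, 5.93%, 7.02% and 6.43% in LD 1, LD 2 and LD 3, and 5.50%, 3.16% and 3.91% in Cell 1, Cell 2 and Cell 3. The HD, LD and Cell samples did not overlap in this share, which adds the signals of different probes and is given as a description. miR-4497 gave 40.5% to 54.6% of the members' summed signal in HD, 26.3% to 27.0% in LD and 6.88% to 8.54% in Cell. miR-4284 gave 0 to 0.130% of it in HD, 0.824% to 3.00% in LD and 53.4% to 60.1% in Cell.

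For tests, a probe had to be detected throughout 1 group or more, on its 3 arrays, which 334 miRNA probes and 31 of the 67 members met; the other 36 members have no test. A member that met this through 1 group alone is set against array floors where it was not detected, so its fold and p describe a difference that the choice of tested probes favours, and the counts support no rule about the members. In HD, 14 of the 31 were higher and 13 lower than in Cell (limma, adjusted p below 0.05 by Benjamini-Hochberg across the 334 probes). Among all tested probes 30.5% were higher and 49.4% lower. The median log2 change from Cell was -0.17 over the 31 members and -0.70 over the 334 probes. Of the 10 members on all 9 arrays, 6 were higher and 2 lower in HD, against 63.0% and 9.88% of the 81 probes detected on all 9 arrays. Scaling changes where no change lies: the median of the 334 probes was -0.51 with no scaling, -2.16 when arrays were scaled on probes detected on all of them and 2.23 when they were scaled on spike controls. Of the 14 rises, 12 kept their direction under all 6 other normalizations and scalings tried, and of the 13 falls 2 did, those of miR-4284 and miR-4443; the other 11 turned under spike control scaling. The spread among the 10 members detected on every array does not depend on a scaling factor, and it ran from -2.17 for miR-4505 to 3.67 for miR-4466.

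Among the members that rose in HD, miR-4497 had a signal of 6082, 5720 and 3406 in HD 1 to HD 3, against 525, 537 and 368 in Cell 1 to Cell 3. Every HD sample was above every Cell sample. Fitted on the log2 scale, it changed by 3.39 ± 0.34 (SE; adjusted p = 4.92e-06). miR-4466 had 1210, 3325 and 1405 in HD, against 204, 149 and 89.4 in Cell. HD 2, the array with the highest scaling factor, was the highest sample on the authors' scale. The fitted log2 change was 3.67 ± 0.42 (adjusted p = 1.46e-05), and 4.27 without Cell 1. The seed of miR-4466 is also that of miR-675-5p, which is processed from the imprinted RNA H19. miR-675-5p was higher in HD as well, by 2.96 ± 0.34 log2 units (adjusted p = 1.58e-05). Its geometric means were 85.2 in HD and 10.9 in Cell, where 2 of 3 arrays detected it. miR-675-5p entered the test through HD alone, so this p is a description.

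miR-4463 had 498, 556 and 244 in HD, against 71.1, 52.7 and 55.1 in Cell, and rose by 2.78 ± 0.36 log2 units (adjusted p = 3.75e-05). miR-4442 had 243, 312 and 156 in HD, against 26.0, 26.6 and 21.8 in Cell, a log2 change of 3.20 ± 0.30 (adjusted p = 3.41e-06). The groups did not overlap for either, and the 3 Cell samples lay close together. miR-4294 had 638, 819 and 319 in HD, against 20.6 and 16.9 in Cell 2 and Cell 3, and it was not detected in Cell 1. Its log2 change of 5.14 ± 0.38 (adjusted p = 5.51e-07) was the highest among the tested members and understates the difference in culture 1.

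miR-4516, described in keratinocytes as acting on the transcription factor STAT3, had 741, 1308 and 453 in HD, against 208, 224 and 158 in Cell. Its log2 change was 1.97 ± 0.37 (adjusted p = 0.000645), with all HD samples above all Cell samples. The change shrank to 0.51 (adjusted p = 0.24) when arrays were scaled on probes detected on all of them. miR-4488 had 801, 833 and 383 in HD, against 311, 226 and 144 in Cell, and its change of 1.55 ± 0.37 (adjusted p = 0.00294) fell to 0.10 (adjusted p = 0.82) under that scaling.

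miR-4428 had 31.5, 63.9 and 20.4 in HD, against 15.6, 22.0 and 9.65 in Cell. The groups overlap, although HD was higher in each of the 3 cultures. The log2 change was 1.21 ± 0.32 (adjusted p = 0.005), against -0.24 when scaled on probes detected on all arrays, 1.41 (adjusted p = 0.116) with no scaling and 1.15 (adjusted p = 0.113) with slide as a random block.

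miR-4258 and miR-4476 were measured on the 3 HD arrays and on no other array. They entered the test through HD alone, so their p-values, taken against array floors, are given as a description and support nothing. miR-4258 had 50.8, 38.5 and 29.6 in HD and was not detected in Cell, which makes it at least 3.78-fold higher in HD (adjusted p = 7.48e-05). A bound here divides the geometric mean where the probe was detected by that of the lowest detected values on the arrays where it was not. miR-4476 had 27.3, 164 and 24.8 in HD and was at least 4.69-fold higher (adjusted p = 0.00235). On the authors' scale HD 2, the array with the highest scaling factor, was far above HD 1 and HD 3. Without HD 2 the bound for miR-4476 is 2.54-fold and the fitted log2 change 1.36 (adjusted p = 0.0034), against 2.23 with it. Scaled on probes detected on all arrays, both calls ended, at 0.46 (adjusted p = 0.297) for miR-4258 and 0.77 (adjusted p = 0.141) for miR-4476, and with slide as a random block that of miR-4476 ended at 2.04 (adjusted p = 0.08). The other rises, chosen after their values were seen, were those of miR-4270, miR-4419a, miR-4513 and miR-4534. Their log2 changes lay between 1.24 and 1.95, and none of these members was detected on more than 1 Cell array. When scaled on probes detected on all arrays, the change of miR-4419a turned to -0.21. Under that scaling the others shrank, to 0.49 for miR-4270, 0.44 for miR-4513 and 0.11 for miR-4534.

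The falls in HD were led by miR-4284 and miR-4443. miR-4284 had 14.5 in HD 1 and was not detected in HD 2 and HD 3, against 4590, 3469 and 2414 in Cell. Its log2 change of -8.06 ± 0.58 (adjusted p = 5.03e-07) rests on array floors for 2 of 3 HD samples and so understates the difference. miR-4443, which has been reported to be induced by leptin and insulin in colon cancer cells, had 26.0 in HD 1 and was not detected in HD 2 and HD 3, against 382, 321 and 340 in Cell. Fitted on the log2 scale, it changed by -4.50 ± 0.39 (adjusted p = 1.64e-06). Both stayed lower in HD under every normalization and scaling tried.

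miR-4505 and miR-4508 were measured on all 9 arrays and were lower in HD. miR-4505 had 37.2, 34.7 and 19.5 in HD, against 152, 151 and 100 in Cell, with no overlap. Its log2 change of -2.17 ± 0.32 (adjusted p = 0.000103) turned to 0.75 under spike control scaling. miR-4508 had 165, 90.4 and 52.1 in HD, against 387, 309 and 241 in Cell, again with no overlap. Its change of -1.74 ± 0.44 (adjusted p = 0.00425) turned to 1.19 under spike control scaling, and it was -1.54 (adjusted p = 0.084) with no scaling and -1.27 (adjusted p = 0.138) with slide as a random block.

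miR-4289 had 59.7, 91.0 and 48.2 in Cell and was detected in no HD sample, a level at least 5.29-fold lower in HD (adjusted p = 2.44e-05, a description, since this member entered the test through Cell alone), against a log2 change of 0.53 under spike control scaling. miR-4485, whose sequence is found in the mitochondrial 16S ribosomal RNA, had 13.3 in HD 3 and was not detected in HD 1 and HD 2, against 73.4, 40.5 and 29.3 in Cell. Its log2 change was -1.82 ± 0.36 (adjusted p = 0.000886), against 1.11 under spike control scaling. With no scaling it was -1.63 (adjusted p = 0.068), and with undetected values left missing -1.07 (adjusted p = 0.16). HD thus had less of either than any Cell sample on the authors' scale, and this order depends on that scale.

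Seeds shared with well-known miRNAs mark 2 further falls. miR-4429, with the seed of miR-320b, miR-320c and miR-320d, had 13.6 in HD 1 and was not detected in HD 2 and HD 3, against 46.3, 47.6 and 39.3 in Cell. On the log2 scale the change was -1.84 ± 0.27 (adjusted p = 0.000106), 1.09 under spike control scaling and -1.64 (adjusted p = 0.065) with no scaling, and those of the 3 relatives were -2.39, -2.05 and -1.70. miR-4429 and the 3 relatives entered the test through Cell alone and are set mostly against HD floors, so these values are a description. miR-4306, with the seed of miR-185-5p, had 21.5, 22.7 and 15 in Cell and was detected in no HD sample, at least 1.60-fold lower in HD (adjusted p = 0.0397, likewise a description, since it entered through Cell alone); under spike control scaling its log2 change was 2.25. The call of miR-4306 ended without Cell 1 (-0.66, adjusted p = 0.092), Cell 2 (-0.57, adjusted p = 0.112), HD 1 (-0.65, adjusted p = 0.13), HD 2 (-0.57, adjusted p = 0.125), LD 1 (-0.68, adjusted p = 0.055) or LD 2 (-0.68, adjusted p = 0.066), with no scaling (-0.48, adjusted p = 0.622) and with slide as a random block (-0.69, adjusted p = 0.258). miR-185-5p fell by 2.59 ± 0.33 log2 units (adjusted p = 3.03e-05), a description too, since it also entered the test through Cell alone. The remaining falls, of miR-4299, miR-4417, miR-4449 and miR-4507, were named after their values were seen; they ran from -1.63 to -1.19 and turned under spike control scaling to between 1.30 and 1.73. miR-4467, the last, is described with LD.

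miR-4492 was measured on every array and passed in no comparison. It had 86.4, 56.5 and 55.5 in HD, 62.1, 129 and 122 in LD and 86.6, 81.3 and 55.0 in Cell, and the 3 groups overlap. Its log2 change from Cell was -0.17 in HD (95% interval -1.01 to 0.67; adjusted p = 0.685) and 0.45 in LD (-0.39 to 1.28; adjusted p = 0.339). miR-762, with the same seed, was higher in HD than in Cell by 1.31 ± 0.32 (adjusted p = 0.0031).

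**Figure D2:**
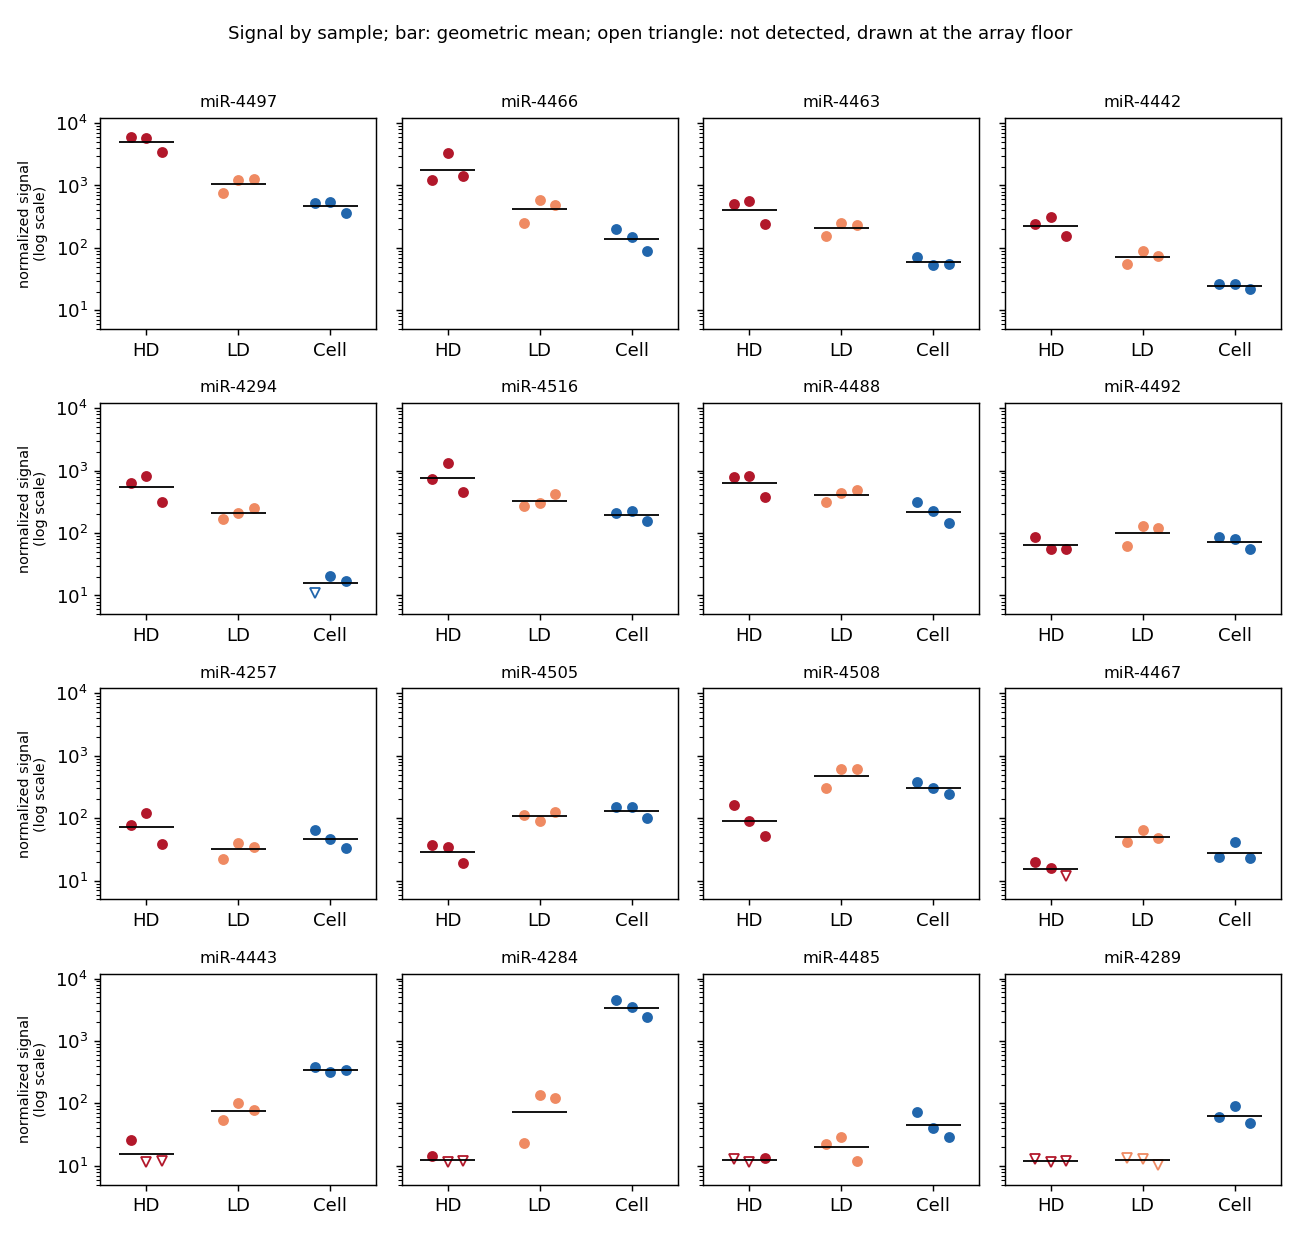
Normalized signal (log axis) of 16 members in the 3 HD, 3 LD and 3 Cell samples; points are samples, bars are geometric means, and open triangles mark samples in which the member was not detected, drawn at the array's lowest detected value. In the top row all HD points lie above all Cell points (miR-4497, 6082, 5720 and 3406 against 525, 537 and 368); for miR-4284 the Cell points, 4590, 3469 and 2414, lie above all others.

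In LD, 6 of the 31 tested members were higher and 7 lower than in Cell, against 16.8% higher and 44.0% lower among the 334 probes. The median log2 change from Cell was 0.24 over the members and -0.54 over the 334 probes. Of the 10 members on all 9 arrays 4 were higher and 0 lower by limma, 0 also at an unadjusted p under 0.05, against 49.4% and 6.17% of the 81 such probes. The 6 rises kept their direction under the 6 other normalizations and scalings tried. Of the 7 falls those of miR-4284 and miR-4289 did, while the other 5 turned under spike control scaling. Among the falls, miR-4289, miR-4299, miR-4429 and miR-4449 entered the test through Cell alone, which favours that direction. The HD and LD contrasts share the Cell samples, so their values are not independent of each other. The count of rises was 3 without Cell 3, 4 without Cell 2, LD 2 or LD 3, and 9 without LD 1. Over the 334 probes it was 32 without Cell 3, 37 without Cell 2, 43 without LD 2, 40 without LD 3 and 65 without LD 1.

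Of the 6, miR-4294 had the highest change: it had 168, 206 and 254 in LD, against 20.6 and 16.9 in Cell 2 and Cell 3. The log2 change was 3.72 ± 0.38 (adjusted p = 1.84e-05). miR-4463 had 156, 253 and 232 in LD, against 71.1, 52.7 and 55.1 in Cell, a change of 1.82 ± 0.36 (adjusted p = 0.00129). miR-4442 had 55.3, 87.6 and 74.7 in LD, against 26.0, 26.6 and 21.8 in Cell. Its log2 change was 1.53 ± 0.30 (adjusted p = 0.00135), and 0.81 (adjusted p = 0.08) when scaled on probes detected on all arrays. All LD samples lay above all Cell samples for these members.

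miR-4466 had 251, 592 and 485 in LD, against 204, 149 and 89.4 in Cell, with LD 1 close to Cell 1. The fitted log2 change was 1.58 ± 0.42 (adjusted p = 0.00783), and 2.17 without Cell 1. The call ended without Cell 2 (1.27, adjusted p = 0.07) or Cell 3 (1.28, adjusted p = 0.07), when scaled on probes detected on all arrays (0.85, adjusted p = 0.076) and with slide as a random block (1.49, adjusted p = 0.123). miR-4497 had 746, 1210 and 1256 in LD, against 525, 537 and 368 in Cell, a log2 change of 1.15 ± 0.34 (adjusted p = 0.0127). No LD sample was as low as a Cell sample. That call ended without Cell 2 (1.14, adjusted p = 0.055), Cell 3 (1.04, adjusted p = 0.073), LD 2 (1.15, adjusted p = 0.051) or LD 3 (0.80, adjusted p = 0.077), when scaled on probes detected on all arrays (0.43, adjusted p = 0.348) and with slide as a random block (1.06, adjusted p = 0.16).

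miR-4467 was the only one of the 31 tested members called lower in HD and higher in LD than in Cell. It had 19.7 and 15.8 in HD 1 and HD 2 and was not detected in HD 3. It had 41.5, 65.1 and 49.0 in LD, against 23.7, 41.6 and 22.8 in Cell. Its log2 change from Cell was -0.86 ± 0.31 in HD (adjusted p = 0.026), where spike control scaling turned it to 2.07, and 0.85 ± 0.31 in LD (adjusted p = 0.0359), where LD 1 lay just below Cell 2. In HD the call ended without Cell 2 (-0.68, adjusted p = 0.112), Cell 3 (-0.91, adjusted p = 0.063), HD 2 (-0.65, adjusted p = 0.121) or HD 3 (-0.77, adjusted p = 0.09). In LD it ended without Cell 1 (0.72, adjusted p = 0.138), Cell 3 (0.81, adjusted p = 0.116), LD 2 (0.83, adjusted p = 0.114) or LD 3 (0.71, adjusted p = 0.126). With slide as a random block neither was called, at -0.74 (adjusted p = 0.279) for HD and 0.81 (adjusted p = 0.281) for LD. The HD change was close to 0 (-0.06, adjusted p = 0.342) in the deposited log2 table, and the LD change was 0.13 (adjusted p = 0.792) when scaled on probes detected on all arrays.

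miR-4284 and miR-4443 were lower in LD than in Cell as well. miR-4284 had 23.4, 138 and 122 in LD, against 4590, 3469 and 2414 in Cell, a log2 change of -5.53 ± 0.58 (adjusted p = 2.22e-05). LD 1, on the slide of the HD arrays, was far below LD 2 and LD 3, and without it the change was -4.54. miR-4443 had 54.9, 103 and 78.5 in LD, against 382, 321 and 340 in Cell. On the log2 scale the change was -2.18 ± 0.39 (adjusted p = 0.000652), 0.09 under spike control scaling and -1.32 (adjusted p = 0.187) with no scaling. miR-4289 was detected in no LD sample, at least 5.24-fold lower than in Cell (adjusted p = 5.53e-05, again a description), with -1.53 (adjusted p = 0.126) under no scaling and -0.12 (adjusted p = 0.838) under spike control scaling.

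miR-4429 had 16.1 in LD 3 and was not detected in LD 1 and LD 2, against 46.3, 47.6 and 39.3 in Cell. Its log2 change was -1.65 ± 0.27 (adjusted p = 0.000436) and 0.63 under spike control scaling, and it was not called in the deposited log2 table (-0.14, adjusted p = 0.076), with no scaling (-0.79, adjusted p = 0.427) or with undetected values missing (-1.29, adjusted p = 0.178). The 3 relatives of its seed changed by -2.38 (miR-320b), -2.17 (miR-320c) and -1.69 (miR-320d), and none of them was detected in LD. As in HD, these values are a description, since miR-4429 and its relatives entered the test through Cell alone. miR-4485 had 22.3, 29.2 and 11.8 in LD, against 73.4, 40.5 and 29.3 in Cell, and LD 2 lay just below Cell 3. Fitted on the log2 scale, it changed by -1.17 ± 0.36 (adjusted p = 0.0172), against 1.11 under spike control scaling. The call ended without Cell 1 (-0.85, adjusted p = 0.108) or LD 3 (-0.93, adjusted p = 0.064), in the deposited log2 table (-0.04, adjusted p = 0.63), with no scaling (-0.31, adjusted p = 0.768) and with slide as a random block (-1.19, adjusted p = 0.169).

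Several members called in HD did not pass in LD. miR-4488 had 312, 433 and 481 in LD, against 311, 226 and 144 in Cell, a log2 change of 0.89 (95% interval 0.06 to 1.72; adjusted p = 0.0596). miR-4516 had 275, 306 and 425 in LD, against 208, 224 and 158 in Cell, a change of 0.76 (-0.07 to 1.59; adjusted p = 0.102). For both the LD samples lay above the Cell samples, by little in the case of LD 1. miR-4505 had 113, 91.2 and 127 in LD, against 152, 151 and 100 in Cell, and changed by -0.27 (-0.99 to 0.44; adjusted p = 0.484). miR-4508 had 302, 605 and 618 in LD, against 387, 309 and 241 in Cell, and changed by 0.66 (-0.34 to 1.65; adjusted p = 0.232). miR-4306 was detected in no LD sample, with an adjusted p of 0.0562.

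**Figure D3:**
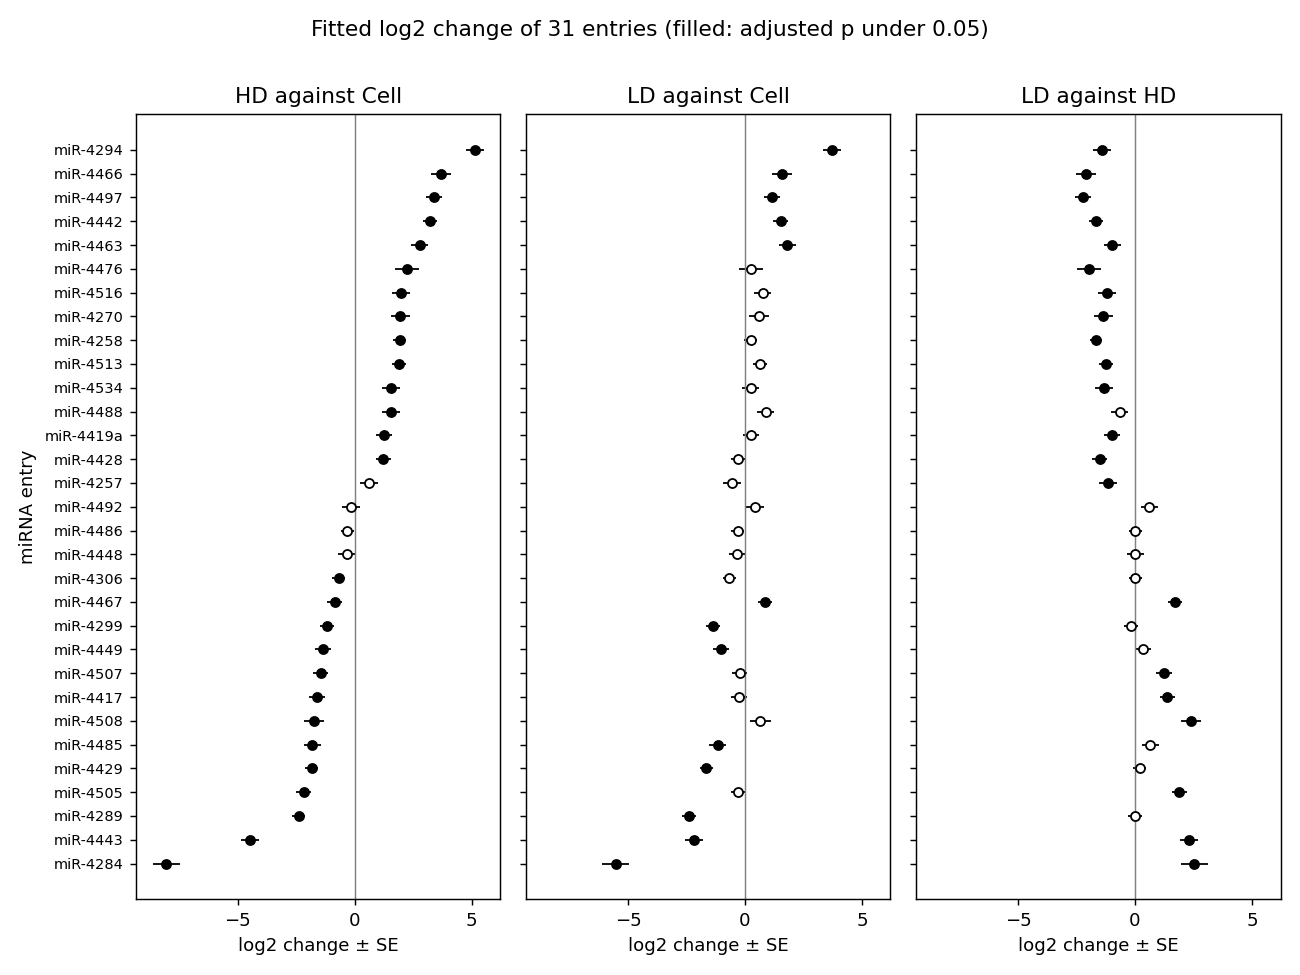
Fitted log2 change with its SE (bars) of the 31 tested members for HD against Cell, LD against Cell and LD against HD; filled points passed an adjusted p of 0.05, and members are ordered by the first panel. miR-4294 is highest in both contrasts with Cell, at 5.14 and 3.72, and miR-4284 lowest, at -8.06 and -5.53; 11 of the 13 falls in the first panel and 5 of the 7 in the second turned under spike control scaling, and the rises of miR-4419a and miR-4428 turned when scaled on probes detected on all arrays.

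LD and HD were compared directly. In LD, 7 of the 31 members were higher and 14 lower than in HD, against 25.7% and 26.3% of the 334 probes, with a median log2 change of -0.17 over the members and 0.01 over all. Of the 65 tested entries numbered from 1000 and below 4000, 13 were higher and 28 lower. Of the 56 numbered 4600 and above, 9 were higher and 25 lower, and of the 164 below 1000, 46 and 17. Of the 10 members on all 9 arrays 2 were higher and 6 lower, against 18.5% and 48.1% of the 81 such probes. Among the 14 lower in LD, miR-4258, miR-4270, miR-4419a, miR-4476, miR-4513 and miR-4534 entered the test through HD alone. They are set wholly or partly against LD floors, so the choice of tested probes favours their direction. All 21 called members kept their direction under the 6 other normalizations and scalings tried. The count of members lower in LD still fell to 4 when scaled on probes detected on all arrays and to 0 with no scaling. Over the 334 probes, 88 lower became 53 and 29 in those settings. With no scaling, 1 member was lower at an unadjusted p under 0.05. The count of members lower in LD was 6 without LD 2 and 7 without HD 2, against 68 and 68 of the 334 probes. LD 1 and the HD samples share slide 2. The difference between them on that slide is given beside the members below; it uses LD 1 and the HD samples of the full comparison and is no independent check. With slide as a fixed block 3 members were called higher and 10 lower, against 50 and 77 of the 334 probes.

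miR-4497 had 746, 1210 and 1256 in LD, against 6082, 5720 and 3406 in HD, a log2 change of -2.24 ± 0.34 (adjusted p = 0.000301). On slide 2 alone the log2 difference of LD 1 from the HD mean was -2.72. miR-4466 had 251, 592 and 485 in LD, against 1210, 3325 and 1405 in HD, a change of -2.10 ± 0.42 (adjusted p = 0.00189) and -2.83 on slide 2. miR-4442 had 55.3, 87.6 and 74.7 in LD, against 243, 312 and 156 in HD, a change of -1.68 ± 0.30 (adjusted p = 0.00102) and -2.04 on slide 2. For all 3 every LD sample lay below every HD sample. With no scaling their calls ended, at -1.57 (adjusted p = 0.127) for miR-4497, -1.44 (adjusted p = 0.177) for miR-4466 and -1.01 (adjusted p = 0.398) for miR-4442. miR-675-5p, which shares the seed of miR-4466, was also lower in LD than in HD, at -2.35 ± 0.34 log2 units (adjusted p = 0.000252). That p is a description too, since miR-675-5p entered the test through HD alone.

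The calls of miR-4294, miR-4516 and miR-4463 depended on single samples and on the scaling. When scaled on probes detected on all arrays they ended, at -0.68 (adjusted p = 0.148) for miR-4294, -0.47 (adjusted p = 0.287) for miR-4516 and -0.23 (adjusted p = 0.6) for miR-4463. With no scaling they ended too, at -0.75 (adjusted p = 0.5), -0.54 (adjusted p = 0.58) and -0.30 (adjusted p = 0.759) in that order. miR-4294 had 168, 206 and 254 in LD, against 638, 819 and 319 in HD, a log2 change of -1.42 ± 0.38 (adjusted p = 0.00881), which was -1.23 (adjusted p = 0.057) without HD 2 and -1.17 (adjusted p = 0.068) without LD 2. miR-4516 had 275, 306 and 425 in LD, against 741, 1308 and 453 in HD, a change of -1.21 ± 0.37 (adjusted p = 0.0197). Its LD 3 and HD 3 values nearly met, and the call ended without HD 2 (-0.84, adjusted p = 0.125), LD 1 (-1.06, adjusted p = 0.051) or LD 2 (-0.91, adjusted p = 0.135), and with slide as a fixed block (-1.50, adjusted p = 0.055). miR-4463 had 156, 253 and 232 in LD, against 498, 556 and 244 in HD, with LD 2 above HD 3. Its change of -0.96 ± 0.36 had an adjusted p of 0.0454, and leaving out any 1 sample other than HD 3 or LD 3 ended the call, with changes of -0.61 (without LD 1) to -1.03 (without LD 2) and adjusted p-values of 0.054 (without Cell 2) to 0.23 (without LD 1); the adjusted p was 0.084 when all probes detected on at least 2 arrays were tested. miR-4488 did not pass, at -0.66 (95% interval -1.49 to 0.17; adjusted p = 0.184).

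miR-4258, miR-4428 and miR-4476 were detected on all 3 HD arrays and in no LD sample. On the authors' scale the bounds were at least 3.16-fold lower in LD for miR-4258 (adjusted p = 0.000496), 2.82-fold for miR-4428 (adjusted p = 0.00259) and 3.93-fold for miR-4476 (adjusted p = 0.00819), or 2.13-fold for miR-4476 without HD 2. These p-values are taken against LD floors, and miR-4258 and miR-4476 entered the test through HD alone, so they are a description. Without LD 2 the change of miR-4476 was -1.58 (adjusted p = 0.064). With slide as a fixed block it was -1.47 (adjusted p = 0.127) for miR-4476 and -1.32 (adjusted p = 0.063) for miR-4428, and both calls ended. When scaled on probes detected on all arrays, miR-4258 was at -0.93 (adjusted p = 0.063) and miR-4428 at -0.77 (adjusted p = 0.123). With no scaling none was called, at -0.999 (adjusted p = 0.401) for miR-4258, -0.83 (adjusted p = 0.5) for miR-4428 and -1.31 (adjusted p = 0.237) for miR-4476.

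The 5 members described next were higher in LD than in HD. miR-4508 had 302, 605 and 618 in LD, against 165, 90.4 and 52.1 in HD, a log2 change of 2.39 ± 0.44 (adjusted p = 0.00115). It was 1.71 on slide 2, 3.03 without LD 1, and 1.13 (adjusted p = 0.101) with slide as a fixed block. miR-4505 had 113, 91.2 and 127 in LD, against 37.2, 34.7 and 19.5 in HD, a change of 1.90 ± 0.32 (adjusted p = 0.000632) and 1.95 on slide 2. The LD and HD samples did not overlap for either. miR-4284 had 23.4, 138 and 122 in LD, against 14.5 in HD 1 alone, a change of 2.54 ± 0.58 (adjusted p = 0.00385). On slide 2 it was 0.89, with slide as a fixed block 0.57 (adjusted p = 0.453) and under quantile normalization of the raw signal 0.65 (adjusted p = 0.093), and without LD 1 it was 3.52. LD 2 and LD 3 carried most of the difference. miR-4443 had 54.9, 103 and 78.5 in LD, against 26.0 in HD 1 alone, a change of 2.32 ± 0.39 (adjusted p = 0.000555) and 1.84 on slide 2. miR-4467 had 41.5, 65.1 and 49.0 in LD, against 19.7 and 15.8 in HD 1 and HD 2, a change of 1.72 ± 0.31 (adjusted p = 0.00102) and 1.42 on slide 2.

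**Figure D4:**
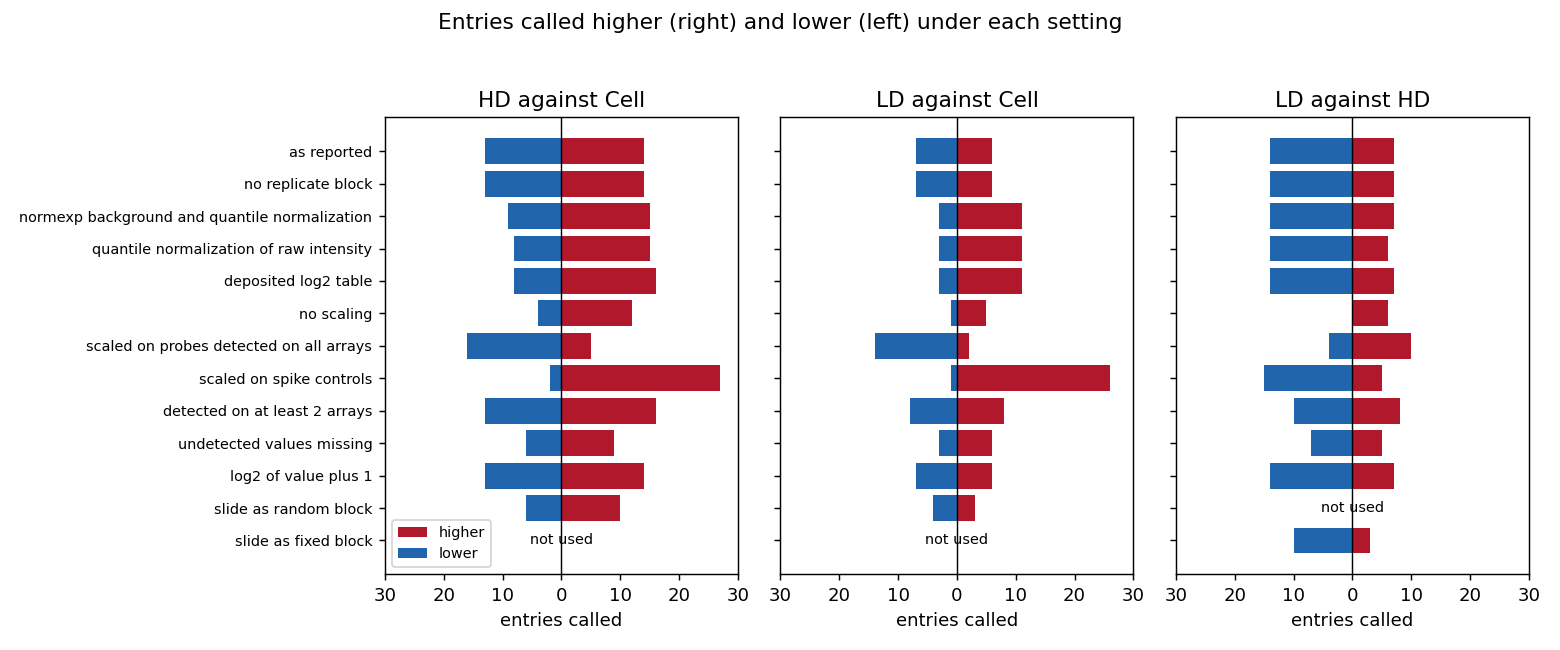
Number of tested members called higher (right, red) and lower (left, blue) under each normalization, scaling, filter and block. The comparisons are HD against Cell, LD against Cell and LD against HD. The same 31 members entered every setting but the filter of detection on at least 2 arrays, which tests all 67. With undetected values missing, members detected on no array of a group could not be tested against that group. Spike control scaling moves the counts against Cell to 27 and 26 higher in HD and LD, and scaling on probes detected on all arrays to 5 and 2. Over all 334 tested probes those counts were 225 and 203 on spike controls, and 55 and 20 on probes detected on all arrays.

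The mature sequences of the members had a median share of G and C of 61.0% (38.1% to 94.4%, 58 members), against 50% over the 1688 probes of 1 miRNA with a sequence. A run of 3 or more G (GGG, searched in the mature strand as printed, in any place and overlap) was present in 35 of the 58 members, 60.3%, and in 30.9% of the 1688. Other entries detected on at least 2 arrays give a closer setting. Those numbered from 1000 and below 4000 (103 with a sequence) had a median of 65.2%, and 51.5% held GGG. Those numbered 4600 and above (120) had 65.0% and 56.7%, and those below 1000 (239) had 50% and 31.4%. A high share of G and C was thus not particular to the members. The 9 members with a sequence that were detected on all 9 arrays were 17 or 18 bases long, had a median of 76.5% G and C, and all 9 held GGG. The 19 members on 2 arrays with a sequence had a median of 56.2%, and the 131 entries of these numbers on 0 or 1 array a median of 50%, of which 28.2% held GGG. Detection chose these sets, and labelling or hybridisation by base composition was not tested.

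**Figure D5:**
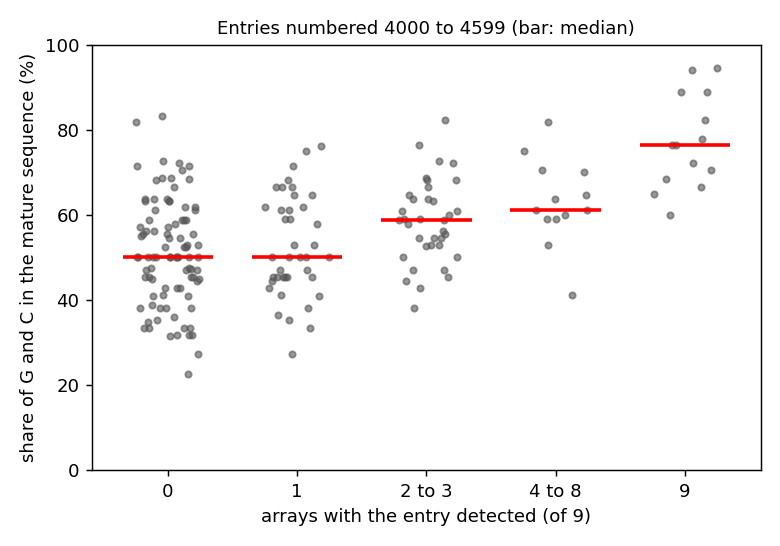
Share of G and C in the mature sequence (vertical axis, %) of the entries numbered from 4000 and below 4600 that have a sequence, the left-out numbers included, by the number of arrays that detected them; points are entries and bars medians. The medians are 50% for entries on 0 arrays or 1 array, 58.8% on 2 to 3 arrays, 61.1% on 4 to 8 arrays and 76.5% on all 9.

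Within the tested members, 13 had 70% or more G and C. Of these, 8 were higher and 3 lower in HD than in Cell, with a median log2 change of 1.92, and of the 12 with 50% to under 70%, 4 were higher and 6 lower, with a median of -0.60. In LD against Cell the 13 counted 4 higher and 1 lower (median 0.60), and the 12 counted 1 higher and 5 lower (median -0.44). In LD against HD the 13 counted 2 higher and 7 lower (median -0.96) and the 12 counted 3 higher and 5 lower (median -0.08). Of the 13, miR-4258 and miR-4270 entered the test through HD alone, and miR-4449 and miR-4486 through Cell alone. Of the 12, miR-4476, miR-4513 and miR-4534 entered through HD alone, and miR-4289, miR-4299, miR-4429 and miR-4448 through Cell alone. The choice of tested probes favours the direction of these members. Other tested entries were split by the same classes, 70% or more given first. In HD against Cell the medians were 0.93 (29 probes) and 1.02 (17) for numbers from 1000 and below 4000. They were 0.96 (28) and 0.77 (22) for 4600 and above, and 1.40 (6) and -1.65 (62) below 1000. The medians of LD against Cell were 0.85 and 0.13, 0.61 and 0.25, and 0.79 and -1.60 in that order. Those of LD against HD were -0.26 and -1.12, -0.68 and -0.34, and -0.46 and 0.01. In the same order, 15 and 9, 17 and 10, and 5 and 12 probes were higher in HD than in Cell. Lower in HD were 2 and 5, 1 and 6, and 0 and 35. In LD against Cell 12 and 3, 11 and 5, and 3 and 6 were higher, and 1 and 2, 0 and 3, and 0 and 36 lower. In LD against HD 6 and 4, 2 and 5, and 0 and 10 were higher, and 13 and 10, 12 and 9, and 2 and 11 lower. Across the 26 tested members with a sequence, the share of G and C and the log2 change had a Pearson r of 0.42 and a Spearman rho of 0.47 for HD against Cell, 0.49 and 0.57 for LD against Cell, and -0.27 and -0.24 for LD against HD. These are descriptions across members that share arrays. miR-4505 and miR-4466, both measured on every array, show the spread within the class of 70% or more: -2.17 against 3.67 in HD against Cell.

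Tested entries with other numbers give the setting. Of the 164 numbered below 1000, 21 were higher and 119 lower in HD than in Cell, with a median log2 change of -2.04. Of the 65 numbered from 1000 and below 4000, 32 were higher and 14 lower (median 0.69), and of the 56 numbered 4600 and above, 31 were higher and 8 lower (median 0.95). The 31 members, with 14 higher and 13 lower and a median of -0.17, lay between these sets; no test of the difference between sets was made. In LD against Cell the counts were 9 higher and 115 lower below 1000, 18 and 11 from 1000 to below 4000, and 18 and 3 for 4600 and above. In LD against HD they were 46 and 17, 13 and 28, and 9 and 25 in that order, with medians of 0.11, -0.67 and -0.64.

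The 36 members without a test were dim. Of their 90 detected values 2 were over 50, and their members are named after these were seen. miR-4298 had 147 in HD 2 and 18.1 in LD 1, and miR-4536-3p had just over 50 in LD 3 and 42.5 in LD 1. The median of the 90 values was 16.3. The hairpin of miR-4433 has both arms among the members: miR-4433-3p had 19.4 in HD 2 and 26.3 in LD 3, and miR-4433-5p had 13.9 in HD 1 and 16.5 in HD 3. No sample detected both arms. miR-4465, with the seed of miR-26a-5p and miR-26b-5p, was detected in Cell 2 (16.8) and Cell 3 (15.4) only. Both relatives were lower in HD than in Cell on the log2 scale. miR-26a-5p changed by -5.09 ± 0.37 (limma, adjusted p = 5.25e-07) and miR-26b-5p by -5.13 ± 0.45 (adjusted p = 1.96e-06).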

How the data were processed

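MicroRNA was labelled with Hy5 and hybridised to 1-colour arrays with locked nucleic acid probes, 1 array per sample, per the labels' protocols. The deposited intensity values are, per the file headers, raw, background-subtracted and globally normalized; set against each other, the authors' normalized intensity is the subtracted one times 1 factor per array that puts the median detected probe at 25, and it is empty where the raw signal was near the blank spots. The authors' deposited log2 table of the whole series correlates with log2 raw intensity and was used as an alternative. The scanner model is not given in the sources used here. The number of arrays, 9, limits the precision.

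The test used log2 of the normalized intensity, with undetected values at the lowest detected value of their array (3.26 to 3.75 on the log2 scale) and the 25 values with an NG mark, none of them a member's, left out. limma 3.58.1 in R 4.3.3 (lmFit, contrasts.fit, eBayes) was fitted to the 334 probes with terms for the 3 groups and for culture (the block), which left 4 residual and 6.05 prior degrees of freedom, and Benjamini-Hochberg adjustment ran over the 334. The script was tested on simulated data. Plots came from matplotlib 3.10.9 (Python 3.11.15). A fold between groups that were both detected is a fit; where a member was detected on some arrays of a group, floor values enter it.

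The cultures pair the samples by the design text. Deviations of same-numbered samples from their group means correlated at -0.284 to 0.212, with 1 of 9 pairs over 0.1, so the pairing rests on that text. Alternatives were the fit without the block, normexp background (offset 50) with quantile normalization, quantile normalization alone, the log2 table, no scaling, scaling on the 81 probes detected on all arrays or on spike controls, detection on at least 2 arrays, undetected values missing, log2 of the value plus 1, slide as a block, and leaving out each sample. The slide is read from the deposited files' own chip numbers.

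Members and lists were chosen with earlier results of these data known. Named miRNAs follow a rule: up to 5 rises and 5 falls per comparison among called members detected on all 6 arrays and moving 1 way in all 3 cultures, the 3 largest bounds, the 5 highest signals per group, up to 5 seeds shared with a tested miRNA numbered below 1000 (those of the members with the highest mean level, which leaves out the seed that miR-4319 shares with miR-125a-5p), and hairpins with both arms. Sequences and positions are RefSeq's (GRCh38.p14); no entry was matched for miR-4294, miR-4417, miR-4419a, miR-4433-3p, miR-4433-5p, miR-4461, miR-4470, miR-4485 and miR-4508.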

Additional observations from a re-analysis of the deposited data

Results flagged for a closer look

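miR-4467 was picked because it lay below Cell in HD and above Cell in LD in all 3 cultures. That choice already puts LD above HD in each culture, so its p for LD against HD is a description and no separate support. For miR-4467 the change of LD against HD was 1.72 ± 0.31 on the log2 scale (limma, adjusted p = 0.00102). Its signal was 41.5, 65.1 and 49.0 in LD, against 19.7 and 15.8 in HD 1 and HD 2, with none detected in HD 3. Its own calls against Cell, -0.86 in HD and 0.85 in LD, ended when single samples were left out, and under spike control scaling the HD change was 2.07.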

How the results depend on the processing

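The fit without the replicate block, that is without pairing by culture, gave the same counts as the paired fit: 14 higher and 13 lower in HD than in Cell, 6 and 7 in LD than in Cell, and 7 and 14 in LD than in HD; it changed no call of a named miRNA. Against Cell, the 14 members higher in HD became 5 when scaled on probes detected on all arrays, 27 on spike controls and 9 with undetected values missing. Over all 334 probes, 102 higher became 55, 225 and 77 in that order. The 13 members lower in HD became 8 under quantile normalization, 8 in the deposited log2 table and 4 with no scaling. They became 2 on spike controls, 6 with undetected values missing and 6 with slide as a random block. Over all probes, 165 lower became 145, 144, 111, 55, 63 and 133 in that order. The 6 members higher in LD became 11 under normexp and quantile normalization, 11 under quantile normalization alone and 11 in the log2 table. They became 2 when scaled on probes detected on all arrays, 26 on spike controls and 3 with slide as a random block. Over all probes, 56 higher became 80, 76, 71, 20, 203 and 16 in that order. The 7 members lower in LD became 3, 3 and 3 under normexp and quantile normalization, quantile normalization alone and the log2 table. They became 1 with no scaling, 14 on probes detected on all arrays and 1 on spike controls. With undetected values missing they became 3, and with slide as a random block 4. Over all probes, 147 lower became 121, 119, 117, 49, 187, 30, 90 and 117 in that order. In LD against HD, the 7 members higher became 3 with slide as a fixed block. The 14 lower became 0 with no scaling, 4 on probes detected on all arrays and 7 with undetected values missing. Over all probes, 86 higher became 50, and 88 lower became 29, 53 and 63 in that order. With undetected values missing, a member detected on no array of a group has no value there and could not be tested against it. This took out 7 calls of HD against Cell, 1 of LD against Cell and 6 of LD against HD, which were not retested. Leaving out each sample gave 14 to 14 and 11 to 13 for HD against Cell, 3 to 9 and 5 to 7 for LD against Cell, and 6 to 8 and 6 to 15 for LD against HD. Over all probes these ranges were 91 to 108 and 153 to 167, 32 to 65 and 132 to 149, and 69 to 94 and 68 to 97. Under spike control scaling these changes from Cell turned: in HD miR-4289 to 0.53, miR-4306 to 2.25, miR-4429 to 1.09, miR-4467 to 2.07, miR-4485 to 1.11, miR-4505 to 0.75 and miR-4508 to 1.19; in LD miR-4429 to 0.63, miR-4443 to 0.090 and miR-4485 to 1.11. Scaled on probes detected on all arrays, miR-4428 in HD turned to -0.24. The all-probe medians of LD against Cell were 0.32, -1.26 and 1.73 with no scaling, on probes detected on all arrays and on spike controls, and of LD against HD 0.68, 0.75 and -0.64. Undetected members have only floors, spike signal differed between groups (8.51 to 11.0 log2 units in HD, 10.4 to 12.1 in LD and 12.2 to 13.6 in Cell), and the cause of these dependences was not tested. Testing all 642 probes detected on at least 2 arrays, with all 67 members, gave 16 members higher and 13 lower in HD than in Cell. The members counted 8 and 8 in LD against Cell, and 8 and 10 in LD against HD. Over the 642 probes the counts were 111 and 164, 52 and 143, and 79 and 81 in that order.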
